A study of Mus musculus with 18 samples.

Results

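The DNA replication genes of primary mouse hepatocytes were followed over 18 arrays, as a list of 45 genes that encode the proteins needed to copy the genome. The members were taken by name from that list. Each gene was read from its probe set with the highest mean over all 18 arrays, the probe set being the group of oligonucleotides on the array that reports 1 transcript. Of the 45 listed genes 44 were measured, among 18193 genes in all, and Chaf1a was not analysed here. The measured members fell into 11 genes of origin licensing, 9 of origin firing, 6 of the sliding clamp and its loader, 10 polymerases and their partners at the fork, 5 of nucleotide supply and 3 of chromatin and histone supply.

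Before a cell copies its DNA, the origin recognition complex, Cdc6 and Cdt1 load the Mcm2-7 helicase onto origins, and geminin prevents a repeat of this loading in the same cycle. The kinase formed by Cdc7 and Dbf4, together with cyclin-dependent kinases, then starts the helicase with Cdc45 and the GINS complex, and polymerases tethered by the Pcna clamp copy both strands. Hepatocytes of an adult liver are mostly quiescent, and many of these genes are transcribed under E2F factors when such cells leave quiescence.

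RNA came from liver hepatocytes of male C57BL/6N mice aged 8 to 12 weeks. Each experiment used the cells of 1 mouse or, where needed, of a pool from at most 3, grown below confluence on collagen I. The cells spent 24 h in serum-free medium with dexamethasone and a further 4 h in starvation medium without it, and no group differed in genotype. Controls received no stimulus and were sampled 5 h before, at the start, and 4, 8, 12 and 24 h after it. The first of these, written as -5 h, is placed before starvation by inference from these hours. IL-6, an acute-phase cytokine, was given as recombinant human protein at 40 ng/ml, with arrays at 1, 2, 3 and 4 h. HGF, which drives hepatocyte growth, followed at 4 h (recombinant mouse protein, 40 ng/ml), giving arrays of IL-6 plus HGF at 5, 6, 7, 8, 9, 10, 12 and 24 h. There was 1 array per condition and hour, so hours stood in for replicates, and each p-value sets a difference against the spread among dishes and hours. IL-6 alone after 4 h and HGF alone were not analysed here, so HGF and a longer exposure to IL-6 cannot be told apart.

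The deposited values behaved as log2 signals between 2.095 and 15.049, and the array medians lay between 5.47 and 5.57. Each array correlated with the rest at a mean of 0.985 to 0.994, and before 24 h the lowest mean, 0.987, was for IL-6 plus HGF at 10 h. That array also had the highest level of the nuclear RNA Malat1, 12.68. Albumin (Alb), the defining hepatocyte marker, read 14.86 in the control at 8 h and 14.67 under IL-6 plus HGF at 24 h. Of the members only Tyms, which encodes thymidylate synthase, lay under the 40th percentile of mean signal over all genes (5.87), and its values say little.

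Over the whole list, the replication genes were highest at 24 h in both conditions. The mean log2 level of the 44 members ran from 8.501 to 8.754 in the controls from 0 to 12 h and stood at 9.364 in the control at 24 h. Under IL-6 alone it ran from 8.386 to 8.576. With IL-6 plus HGF it ran from 8.389 to 8.668 from 5 to 12 h and stood at 9.528 at 24 h. Only the 24 h arrays thus stood apart, and before 24 h the ranges of the 3 conditions overlapped. In the controls 41 of 44 members were higher at 24 h than on every earlier control array from 0 h on, where 25.5% of all genes were, and the others were Orc1, Cdc7 and Tyms. With IL-6 plus HGF 41 of 44 were higher at 24 h than on all 7 earlier arrays of that condition, against 21.5% of all genes, and the others were Orc1, Pold1 and Tyms. No member was below every earlier array at 24 h in either condition, against 33.7% of all genes in control and 25.8% with IL-6 plus HGF. In bulk RNA a larger share of replicating cells and more RNA per cell cannot be told apart.

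**Figure D1:**
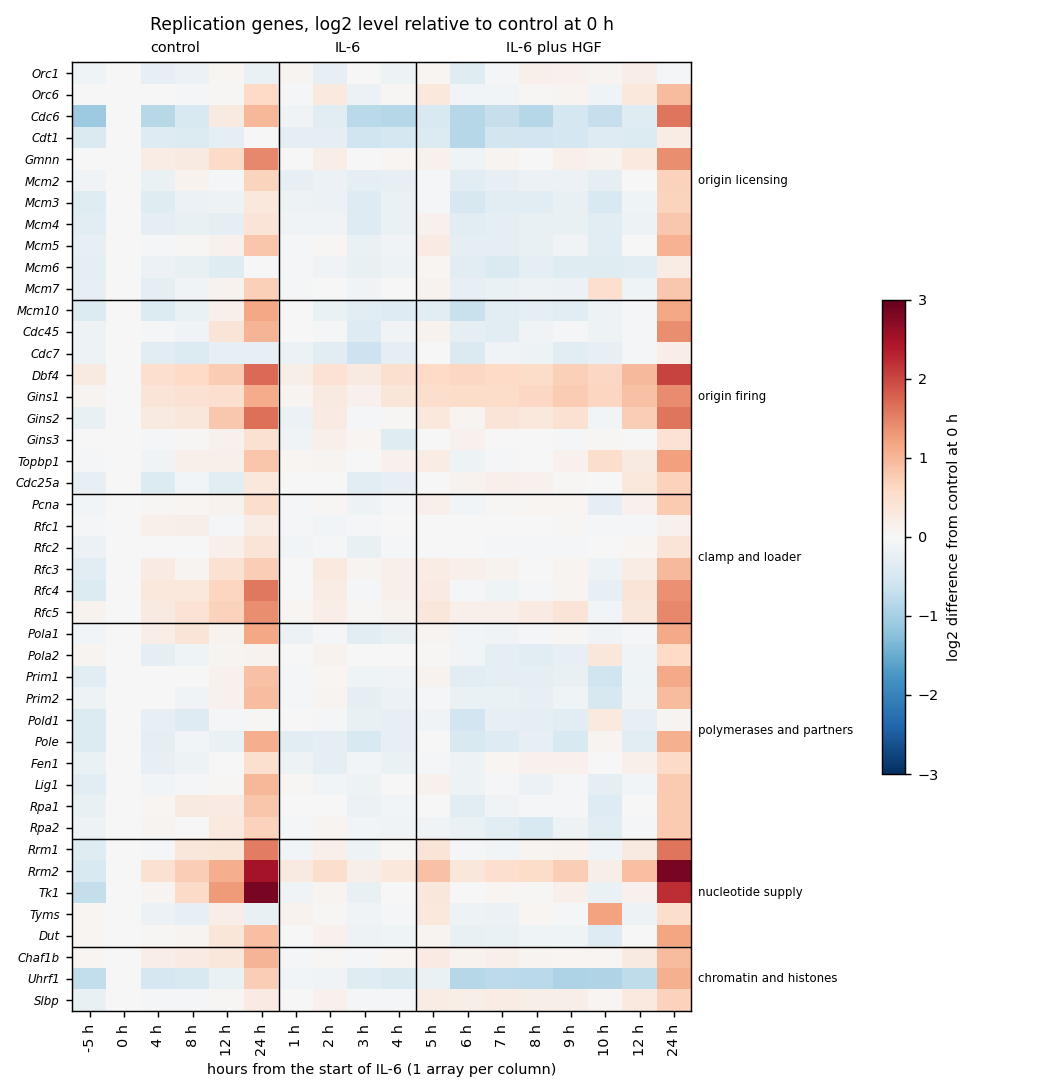
Log2 level of the 44 measured replication genes on each of the 18 arrays, as the difference from the control at 0 h (colour, log2 units), with genes in rows by role and hours in columns by condition. Both 24 h columns are red for most genes, with a list mean of 0.805 above 0 h in control and 0.97 above it with IL-6 plus HGF, while earlier columns lie between -0.173 and 0.195 from 0 h on.

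Promoter sequence is shown because so many members were high on the same arrays. RefSeq (build GRCm38.p6) gave 44 promoter windows for 38 of the 45 listed genes, each from 250 bases before to 50 after an annotated start. An E2F motif, searched as TTTCGCGC, TTTGGCGC, TTTCCCGC or TTTGGCGG on both strands, occurred in 18 of the 44 windows, 40.9%, against 2.37% of all 32851 windows. The genes were Orc1, Cdc6, Cdt1, Mcm3, Mcm5, Mcm6, Mcm7, Topbp1, Cdc25a, Gins3, Rfc3, Pola1, Pola2, Pold1, Lig1, Rpa1, Uhrf1 and the unmeasured Chaf1a. A CCAAT box on either strand occurred in 25 windows, 56.8%, against 37.4% of all windows, and the CHR element TTTGAA in 7, 15.9%, against 17.9%. These matches describe letters, not binding. Below are 160 bases, 5′ to 3′ on the gene's own strand, before the outermost annotated start, with E2F matches in capitals. The first 4 genes have a match and rose by 24 h with IL-6 plus HGF, though Mcm6 and Rfc3 did not pass in control. The last 2, Tk1 and Rrm2, had the largest changes in control and no match in their windows. These sets were picked by different rules, so they do not compare genes with and without a match. Other matched genes, such as Topbp1 and Pola1, are not shown.
Mcm5, chr8:75109308-75109467, plus strand: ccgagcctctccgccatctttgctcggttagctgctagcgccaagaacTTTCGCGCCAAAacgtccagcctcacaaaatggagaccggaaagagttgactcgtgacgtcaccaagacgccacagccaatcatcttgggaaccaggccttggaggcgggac
Mcm6, chr1:128359706-128359865, minus strand: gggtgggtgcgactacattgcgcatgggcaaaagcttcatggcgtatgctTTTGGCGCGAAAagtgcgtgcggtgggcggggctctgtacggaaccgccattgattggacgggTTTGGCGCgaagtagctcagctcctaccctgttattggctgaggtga
Rfc3, chr5:151651209-151651368, minus strand: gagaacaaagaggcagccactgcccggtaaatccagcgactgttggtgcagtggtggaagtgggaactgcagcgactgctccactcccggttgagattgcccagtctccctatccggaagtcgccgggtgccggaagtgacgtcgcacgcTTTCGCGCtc
Rpa1, chr11:75348455-75348614, minus strand: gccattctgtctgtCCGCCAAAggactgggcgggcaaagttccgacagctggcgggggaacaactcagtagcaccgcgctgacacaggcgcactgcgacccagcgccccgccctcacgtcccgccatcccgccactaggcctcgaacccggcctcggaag
Tk1, chr11:117826088-117826247, minus strand: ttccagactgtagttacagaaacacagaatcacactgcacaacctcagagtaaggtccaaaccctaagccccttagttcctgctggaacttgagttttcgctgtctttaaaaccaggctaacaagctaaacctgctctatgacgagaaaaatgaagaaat
Rrm2, chr12:24708094-24708253, plus strand: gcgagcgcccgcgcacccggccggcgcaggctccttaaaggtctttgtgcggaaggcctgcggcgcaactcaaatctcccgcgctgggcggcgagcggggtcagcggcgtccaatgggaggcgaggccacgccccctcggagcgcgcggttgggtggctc
In Mcm5 the capitals hold TTTCGCGC and, on the opposite strand, an overlapping TTTGGCGC, beginning 112 bases before the outermost start, from which all distances here are counted. In Mcm6 the same pair of motifs overlaps in the reverse order from 110 bases before the start, and another TTTGGCGC begins at 47. Rfc3 carries TTTCGCGC 10 bases before its start, and Rpa1 carries TTTGGCGG on the opposite strand from 146 bases before its start. The median difference between 24 h and 8 to 12 h with IL-6 plus HGF was 0.90 over the 17 measured genes with a match and 1.12 over the 20 whose windows had none.

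The change to 24 h was tested as the 24 h array against the arrays from 8 to 12 h of the same condition, in 1 limma fit over 17 arrays with Benjamini-Hochberg adjustment over all genes. The arrays compared were 2 earlier controls on one side and 4 earlier IL-6 plus HGF arrays on the other, and each single 24 h array was assumed to vary like the other groups. In control, 25 of 44 members rose and none fell at an adjusted p under 0.05, where 3.73% of all genes rose and 2.19% fell. With IL-6 plus HGF, 38 members rose and none fell, where 7.46% of all genes rose and 3.83% fell. The median log2 difference was 0.66 over the members and -0.04 over all genes in control, and 0.94 and -0.05 with IL-6 plus HGF. With the control at 8 h or that at 12 h left out, only 1 control remained on each side. Fewer members then passed, and so did fewer of all genes. The median difference over the members was 0.63 without the control at 8 h and 0.68 without that at 12 h.

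Other measures moved at 24 h beside the replication genes. The mean level of 5 hepatocyte markers was 10.79 in the 24 h control against 11.51 to 11.57 at 8 to 12 h, and 2 of the 5 fell. Under IL-6 plus HGF the mean was 10.26 against 10.99 to 11.40, and 4 of the 5 fell. Cps1, the mitochondrial enzyme that starts the urea cycle, went from 10.05 at 12 h to 7.81 in control and from 7.90 to 6.28 with IL-6 plus HGF, and Ass1 was dim throughout. Of 4 cholangiocyte markers 1 rose in each condition, and the list mean was 6.94 and 7.04 at 24 h against 6.48 to 6.58 and 6.60 to 6.78 before. This was the keratin Krt19, picked here after its values were seen, at 7.55 and 9.38 in control at 12 and 24 h, while Epcam read 6.40 and 6.39. The Kupffer cell list (7 genes) stood at 6.65 and 6.64 at 24 h against 6.92 to 6.96 in control and 6.52 to 6.76 with IL-6 plus HGF, with 2 markers lower in control, and 1 higher and 1 lower with IL-6 plus HGF. The endothelial list (5 genes) stood at 7.02 in the 24 h control against 6.85 to 7.01, with 1 marker higher, and at 6.28 against 6.42 to 6.93 with IL-6 plus HGF, with no call. The stellate list (5 genes) stood at 5.58 against 5.52 to 5.60 in control, and at 5.28 against 5.51 to 5.60 with IL-6 plus HGF, where 1 marker fell. The leukocyte list (2 measured genes) had no call at 24 h and stood at 5.44 and 5.61. The mean of the nuclear RNAs Malat1 and Neat1 was 8.96 at 24 h against 9.06 to 9.70 in control and 9.62 against 9.69 to 12.01 with IL-6 plus HGF, and with it as a covariate 26 and 37 members rose. The part of the cell type markers in the result was not tested.

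Of the origin licensing genes 10 of 11 rose with IL-6 plus HGF and 4 of 11 in control, with medians of 0.88 and 0.63. Cdc6, the ATPase that brings the helicase to the origin, had log2 levels in control of 7.35 at 0 h, 6.52 at 4 h, 6.89 at 8 h, 7.63 at 12 h and 8.34 at 24 h. Its levels with IL-6 plus HGF were 6.48 to 6.99 (median 6.66) over the 7 arrays from 5 to 12 h and 8.95 at 24 h. All 7 of those earlier stimulated arrays lay below the controls at 0 and 12 h, and at 24 h the stimulated array was the highest of all. Cdc6 rose by 2.21 ± 0.33 (log2 difference ± SE, 4.61-fold, adjusted p = 0.000312) with IL-6 plus HGF, and in control its difference was 1.08 ± 0.36 (adjusted p = 0.0972). Its control levels at 8 and 12 h lay far apart, 6.89 and 7.63.

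Gmnn, which encodes the licensing inhibitor geminin, read 8.90 at 0 h, 9.12 at 4 h, 9.18 at 8 h, 9.48 at 12 h and 10.34 at 24 h in the controls. With the stimulus Gmnn read 8.78 to 9.20 (median 8.99) over the 7 arrays from 5 to 12 h and 10.29 at 24 h. Both 24 h arrays lay above all others, at almost equal levels. The rise was 1.01 ± 0.16 in control (adjusted p = 0.00111) and 1.26 ± 0.15 with IL-6 plus HGF (adjusted p = 3.54e-05). Of the helicase subunits, Mcm5 read 9.92 at 0 h, 9.85 at 4 h, 9.96 at 8 h, 10.04 at 12 h and 10.76 at 24 h in control. With IL-6 plus HGF, Mcm5 read 9.58 to 10.17 (median 9.69) over the 7 arrays from 5 to 12 h and 10.97 at 24 h, so that apart from 24 h the conditions overlapped. Mcm5 rose by 0.76 ± 0.19 and 1.21 ± 0.18 in the 2 conditions (adjusted p = 0.0297 and 0.000251).

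The other helicase subunits were also higher at 24 h, by more with the stimulus by value. Mcm2 rose by 0.64 ± 0.14 in control and 0.85 ± 0.13 with IL-6 plus HGF, and Mcm4 by 0.63 ± 0.17 and 1.05 ± 0.16. Mcm3, Mcm6 and Mcm7 passed with IL-6 plus HGF, where they rose by 0.95 ± 0.16, 0.57 ± 0.14 and 0.80 ± 0.21, and their control differences were 0.49, 0.31 and 0.71. Mcm7 was also high on the stimulated array at 10 h (11.51 against 10.81 at 9 h). The loading factor Cdt1 rose by 0.69 ± 0.17 and Orc6, a subunit of the origin recognition complex, by 0.88 ± 0.18 with IL-6 plus HGF. Orc1, its largest subunit, did not follow them on the probe set used, with differences of -0.14 ± 0.17 and -0.20 ± 0.15. On that probe set its levels over the 18 arrays stayed between 5.99 and 6.54. With the mean of its 2 probe sets Orc1 passed as higher with IL-6 plus HGF, though not in control, so its reading depends on the probe set. In this group the adjusted p-values of the rises ran from 0.00111 to 0.0423 in control and from 3.54e-05 to 0.0231 with IL-6 plus HGF.

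**Figure D2:**
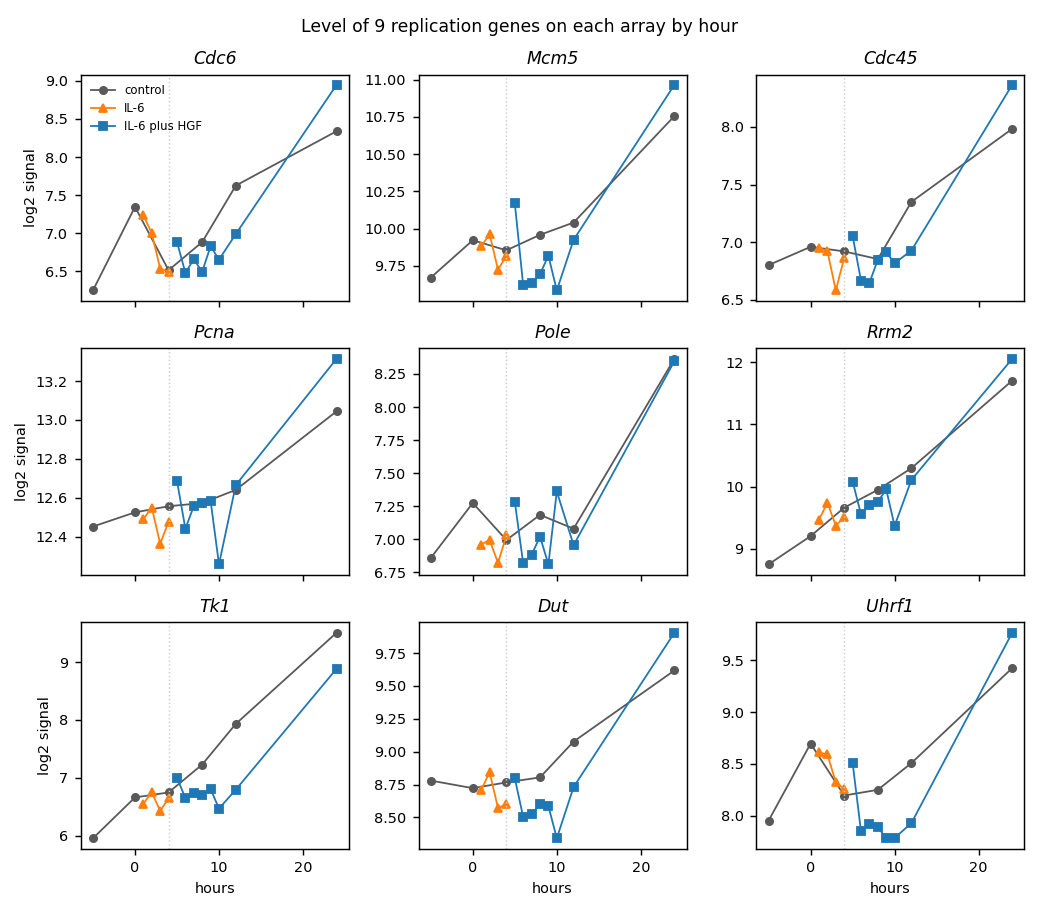
Log2 signal of 9 replication genes on each array against hours from the start of IL-6, for control (circles), IL-6 (triangles) and IL-6 plus HGF (squares), with a dotted line at 4 h where HGF was added and 1 array per point. All 9 genes are highest at 24 h in both conditions, Tk1 lies lower with IL-6 plus HGF than in control at 8, 12 and 24 h, and Uhrf1 drops from 8.51 at 5 h to 7.85 at 6 h under the stimulus.

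Origin firing genes rose in both conditions, 6 of 9 in control and 7 of 9 with IL-6 plus HGF, with medians of 0.67 and 1.01. Cdc45, which joins Mcm2-7 and GINS in the active helicase, read 6.96 at 0 h, 6.92 at 4 h, 6.85 at 8 h, 7.35 at 12 h and 7.98 at 24 h in control. Under the stimulus Cdc45 read 6.65 to 7.05 (median 6.85) over the 7 arrays from 5 to 12 h and 8.37 at 24 h. The 24 h arrays were the highest, and the control at 12 h was the next. Cdc45 rose by 0.88 ± 0.20 in control (adjusted p = 0.0146) and 1.49 ± 0.18 with IL-6 plus HGF (adjusted p = 5.06e-05). Mcm10, a scaffold for helicase activation, read 6.93 at 0 h, 6.53 at 4 h, 6.74 at 8 h, 7.08 at 12 h and 8.10 at 24 h in control. With the stimulus its levels were 6.26 to 6.89 (median 6.62) over the 7 arrays from 5 to 12 h and 8.09 at 24 h, and at 24 h the conditions were level. Its rises were 1.19 ± 0.21 and 1.36 ± 0.19 (adjusted p = 0.00246 and 0.000177).

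Dbf4, the activating subunit of the Cdc7 kinase, climbed from array to array in the controls, which read 8.28 at 0 h, 8.79 at 4 h, 8.88 at 8 h, 9.03 at 12 h and 9.97 at 24 h. Under the stimulus Dbf4 read 8.83 to 9.25 (median 8.89) over the 7 arrays from 5 to 12 h and 10.31 at 24 h. Its level at -5 h was 8.54, so that the control at 0 h was the lowest of all 18 arrays. Dbf4 rose by 1.01 ± 0.19 in control and 1.31 ± 0.18 with IL-6 plus HGF (adjusted p = 0.00481 and 0.000134). Its catalytic partner Cdc7 had differences of 0.07 ± 0.20 and 0.39 ± 0.18, neither past the threshold.

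Of the GINS complex, Gins1 rose by 0.63 ± 0.15 and 0.70 ± 0.14 and Gins2 by 1.09 ± 0.27 and 1.24 ± 0.24, in control and with IL-6 plus HGF. Gins3 had differences of 0.38 ± 0.15 and 0.44 ± 0.14 that missed the threshold. Topbp1, which helps to bring the helicase parts together, rose by 0.67 ± 0.18 and 1.01 ± 0.16. Its rise in control depends on the probe set, and with the mean of its 2 probe sets the difference was 0.13. Cdc25a, the phosphatase that activates S-phase kinases, rose by 0.57 ± 0.17 with IL-6 plus HGF (adjusted p = 0.0356) and differed by 0.51 ± 0.18 in control. The adjusted p-values of the other rises in this group were at most 0.0352 in control and 0.00386 with the stimulus.

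Of the sliding clamp and the loader that opens it around DNA, 2 of 6 genes rose in control and 5 of 6 with IL-6 plus HGF. Pcna, the clamp itself, read 12.52 at 0 h, 12.56 at 4 h, 12.57 at 8 h, 12.64 at 12 h and 13.04 at 24 h in control. The stimulated Pcna levels were 12.26 to 12.69 (median 12.57) over the 7 arrays from 5 to 12 h and 13.32 at 24 h. It thus stayed within a narrow band before 24 h, apart from a low value at 10 h. Pcna rose by 0.79 ± 0.14 with the stimulus (adjusted p = 0.00102), and its control difference was 0.44 ± 0.15 (adjusted p = 0.105). Among the loader subunits, Rfc4 read 7.92 at 0 h, 8.24 at 4 h, 8.23 at 8 h, 8.56 at 12 h and 9.50 at 24 h in control. Its levels with IL-6 plus HGF were 7.69 to 8.31 (median 7.89) over the 7 arrays from 5 to 12 h and 9.29 at 24 h, lower at 24 h than in control. Rfc4 rose by 1.10 ± 0.22 and 1.32 ± 0.20 and Rfc5 by 0.84 ± 0.18 and 1.22 ± 0.16. Rfc2 rose by 0.39 ± 0.10 and Rfc3 by 0.94 ± 0.16 with the stimulus, against control differences of 0.33 and 0.48. Rfc1, the large subunit of the loader, differed by 0.16 ± 0.11 and 0.15 ± 0.10 and did not pass. The adjusted p-values of the rises in this group were at most 0.00997 in control and 0.0188 with IL-6 plus HGF.

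The polymerases and their partners rose in 7 of 10 cases in control and 9 of 10 with IL-6 plus HGF, with medians of 0.70 and 0.98. Pole, the catalytic subunit of the leading-strand polymerase, read 7.27 at 0 h, 6.99 at 4 h, 7.18 at 8 h, 7.08 at 12 h and 8.37 at 24 h in control. With the stimulus Pole read 6.81 to 7.36 (median 6.96) over the 7 arrays from 5 to 12 h and 8.35 at 24 h. Its 24 h levels were almost equal, and every earlier array lay far below both. Pole rose by 1.23 ± 0.21 and 1.31 ± 0.19 (adjusted p = 0.00182 and 0.000244). Prim1, the catalytic subunit of the primase, read 8.82 at 0 h, 8.83 at 4 h, 8.80 at 8 h, 8.94 at 12 h and 9.70 at 24 h in control. Prim1 with IL-6 plus HGF read 8.22 to 8.92 (median 8.55) over the 7 arrays from 5 to 12 h and 9.96 at 24 h, and before 24 h each of these arrays but that at 5 h lay below all controls from 0 to 12 h. Prim1 rose by 0.83 ± 0.18 and 1.45 ± 0.17 (adjusted p = 0.0121 and 3.26e-05).

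The rest of the priming complex rose as well. Pola1, the catalytic subunit of polymerase alpha, rose by 0.93 ± 0.14 in control and 1.18 ± 0.13 with IL-6 plus HGF. With the mean of its 2 probe sets its control difference was 0.25 and did not pass. Prim2, the large primase subunit, rose by 0.91 ± 0.17 and 1.19 ± 0.15. Pola2, the accessory subunit of polymerase alpha, rose by 0.69 ± 0.19 with the stimulus (adjusted p = 0.0315) and differed by 0.13 ± 0.21 in control. Pold1, the catalytic subunit of the lagging-strand polymerase, differed by 0.24 ± 0.24 and 0.22 ± 0.22 and passed in neither condition.

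Genes that finish Okazaki fragments and cover single strands also rose. Lig1, the ligase that seals the fragments, rose by 1.01 ± 0.13 in control and 0.93 ± 0.12 with IL-6 plus HGF. Fen1, the nuclease that trims their flaps, rose by 0.57 ± 0.13 and 0.47 ± 0.12. In these genes the control change was no smaller than the stimulated one by value. Rpa1, the large subunit of the single-strand binding protein, rose by 0.57 ± 0.16 and 0.90 ± 0.14, and Rpa2 rose by 1.03 ± 0.15 with the stimulus against 0.55 ± 0.16 in control (adjusted p = 0.0619). The adjusted p-values of the other rises in this group were at most 0.042 in control and 0.0173 with IL-6 plus HGF.

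The nucleotide supply genes had the highest group medians, 1.19 in control and 1.50 with IL-6 plus HGF, and 4 of 5 rose in each condition. Tk1, the salvage enzyme thymidine kinase, read 6.66 at 0 h, 6.75 at 4 h, 7.23 at 8 h, 7.93 at 12 h and 9.51 at 24 h in control. Under the stimulus Tk1 read 6.47 to 7.00 (median 6.73) over the 7 arrays from 5 to 12 h and 8.89 at 24 h. The controls at 8 and 12 h already lay above every stimulated array before 24 h, and the 24 h control was the highest array. Tk1 rose by 1.93 ± 0.23 (3.81-fold, adjusted p = 0.000107) and 2.20 ± 0.21 (4.58-fold, adjusted p = 6.41e-06).

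Rrm2, the small subunit of ribonucleotide reductase that is made for S phase, read 9.21 at 0 h, 9.66 at 4 h, 9.95 at 8 h, 10.30 at 12 h and 11.71 at 24 h in control. With the stimulus Rrm2 read 9.37 to 10.11 (median 9.76) over the 7 arrays from 5 to 12 h and 12.06 at 24 h. Its control levels climbed at every hour, and the earlier stimulated arrays lay within their span from 0 to 12 h. Rrm2 rose by 1.58 ± 0.28 (2.99-fold, adjusted p = 0.00241) and 2.26 ± 0.25 (4.78-fold, adjusted p = 2.57e-05). The large subunit Rrm1 rose by 1.19 ± 0.18 and 1.50 ± 0.17 (adjusted p = 0.000844 and 2.32e-05). Dut, the dUTPase that keeps uracil out of DNA, read 8.72 at 0 h, 8.77 at 4 h, 8.80 at 8 h, 9.08 at 12 h and 9.62 at 24 h in control. Its levels with IL-6 plus HGF were 8.34 to 8.80 (median 8.59) over the 7 arrays from 5 to 12 h and 9.90 at 24 h, and the stimulated 24 h array was the highest. Dut rose by 0.68 ± 0.17 and 1.34 ± 0.16 (adjusted p = 0.0273 and 3.52e-05). The dim Tyms differed by -0.19 ± 0.40 and 0.27 ± 0.36.

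Of the chromatin and histone genes 2 of 3 rose in control and all 3 with IL-6 plus HGF. Uhrf1, which guides maintenance methylation to new DNA, read 8.70 at 0 h, 8.19 at 4 h, 8.25 at 8 h, 8.51 at 12 h and 9.43 at 24 h in control. The stimulated arrays read for Uhrf1 8.51 at 5 h, 7.85 at 6 h, 7.92 at 7 h, 7.89 at 8 h, 7.78 at 9 h, 7.78 at 10 h, 7.93 at 12 h and 9.77 at 24 h. From 6 to 12 h it was thus below every control from 0 h on, and at 24 h it was above them all. Uhrf1 rose by 1.05 ± 0.25 and 1.92 ± 0.23 (adjusted p = 0.019 and 3.76e-05). Chaf1b, a subunit of the histone chaperone that follows the fork, rose by 0.73 ± 0.12 and 0.83 ± 0.11 (adjusted p = 0.00187 and 0.000136). Slbp, which binds the stem-loop of histone mRNAs, rose by 0.50 ± 0.10 with IL-6 plus HGF (adjusted p = 0.00434) and differed by 0.24 ± 0.11 in control.

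**Figure D3:**
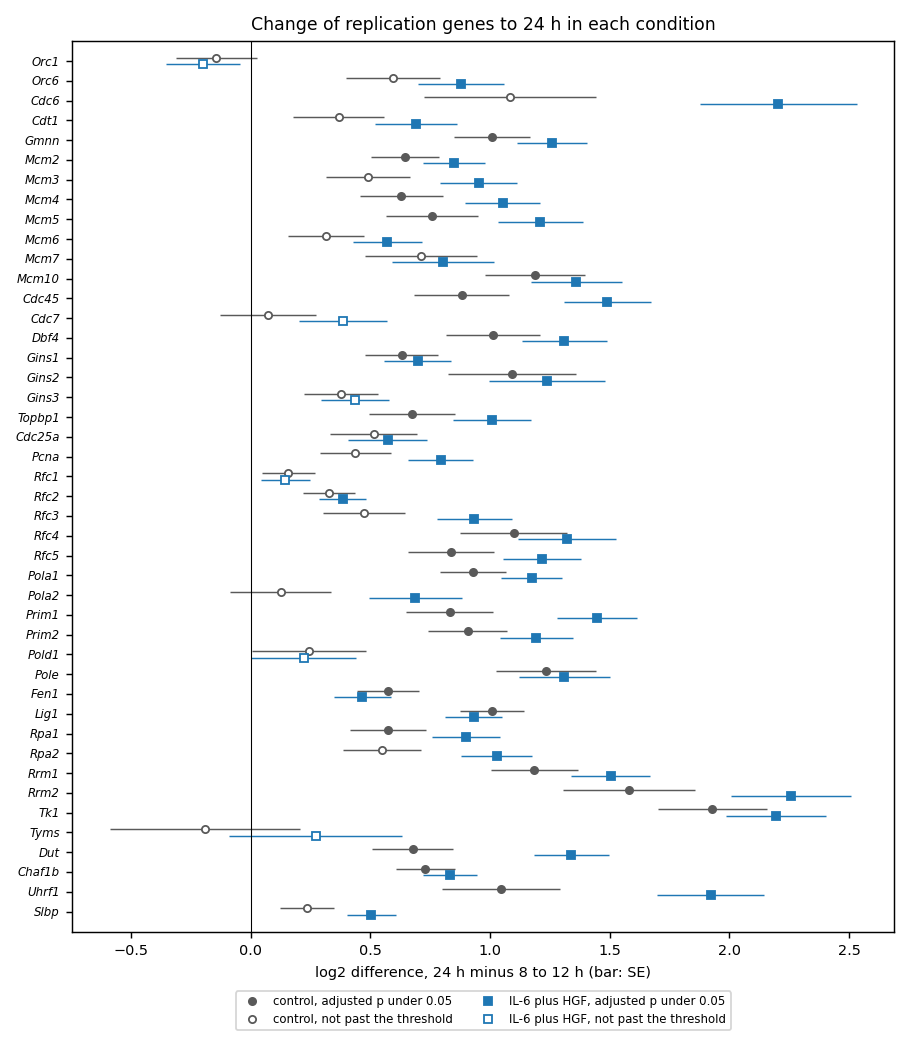
Log2 difference between the 24 h array and the arrays from 8 to 12 h (horizontal axis, bars 1 SE) for each of the 44 measured replication genes, in control (circles) and with IL-6 plus HGF (squares), filled where the adjusted p is under 0.05. Filled symbols number 25 in control and 38 with IL-6 plus HGF, all of them above 0.

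Whether the stimulus enlarged the 24 h change was tested as the difference between both changes in the same fit. No member passed in either direction by limma, where 0.0495% of all genes were higher and 0.0275% lower, and 6 members had an unadjusted p under 0.05. How many of all genes reached that unadjusted level was not counted, so the 6 have no share to be set against. The change was larger by value with IL-6 plus HGF in 39 of 44 members, with a median of 0.29 against 0.01 over all genes. The 6 were Cdc6, at 1.12 ± 0.49, Uhrf1, at 0.87 ± 0.33, Dut, at 0.66 ± 0.23, Prim1, at 0.62 ± 0.25, Cdc45, at 0.61 ± 0.27, and Rpa2, at 0.48 ± 0.22, and the lowest adjusted p was 0.791 (limma). In the groups that these 6 leave out, the largest values were 0.46 ± 0.23 for Rfc3 and 0.38 ± 0.24 for Rfc5. A larger change is in part a lower start. The median member differed from control by -0.139 at 8 h and -0.12 at 12 h, and by 0.176 at 24 h.

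Slopes over time gave the same direction but rested on 24 h. With IL-6 plus HGF the slope on log2(hour) from 5 to 24 h was positive in all 44 members, with a median of 0.39 per log2 unit of time against -0.01 over all genes. It passed in 18 members, none of them negative, where 6.27% of all genes had a higher and 4.84% a lower slope past the threshold (limma). Licensing genes among the 18 were Cdc6 (0.97 ± 0.20), Gmnn (0.60 ± 0.11), Mcm2 (0.38 ± 0.10) and Cdt1 (0.36 ± 0.09). Firing genes were Mcm10 (0.71 ± 0.11), Dbf4 (0.64 ± 0.11), Cdc45 (0.64 ± 0.16), Gins2 (0.60 ± 0.14), Topbp1 (0.54 ± 0.11), Gins1 (0.40 ± 0.06) and Cdc25a (0.29 ± 0.07). The others were Rfc4 (0.57 ± 0.15), Pola1 (0.46 ± 0.13), Rpa2 (0.42 ± 0.12), Fen1 (0.28 ± 0.06), Rrm2 (0.93 ± 0.24), Tk1 (0.84 ± 0.23) and Rrm1 (0.60 ± 0.17). Their adjusted p-values ran from 0.00235 for Gins1 to 0.0497 for Rrm1, and Uhrf1 of the chromatin group had 0.63 ± 0.24 without passing.

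Without the 24 h array no member passed, and the slopes were positive in 23 members and negative in 21. Cdc6 then had a slope of 0.134 ± 0.158 and Gins1 of 0.254 ± 0.0884, while Tk1 (-0.161 ± 0.133), Uhrf1 (-0.374 ± 0.164), Pola1, Rrm1 and Rrm2 turned negative. The count of 18 moved with single arrays, to 36 without 5 h, 8 without 6 h and 10 without 7 h. It was 11 without 8 h, 11 without 9 h, 29 without 10 h, and 36 with hours in place of their logarithm. Over all 18193 genes, 1140 had a higher slope past the threshold in the main fit, and 50 without 24 h. Without 5, 6 and 7 h they numbered 1113, 916 and 893. Without 8, 9 and 10 h they numbered 903, 938 and 1769, and with hours 1450.

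In the controls, the slope on log2(hour + 1) from 0 to 24 h was positive in 38 of 44 members, with a median of 0.14, and none passed in either direction (limma, 3 residual degrees of freedom, 15 at an unadjusted p under 0.05), where 2.14% of all genes had a higher and 1.47% a lower slope. The largest values of each group were Gmnn at 0.26 ± 0.07, Dbf4 at 0.31 ± 0.07, Rfc4 at 0.28 ± 0.08, Pola1 at 0.19 ± 0.08, Tk1 at 0.54 ± 0.15 and Chaf1b at 0.18 ± 0.06. Rrm2 followed Tk1 at 0.47 ± 0.11. The share of all genes at an unadjusted p under 0.05 was not counted for these slopes. With hours in place of their logarithm 23 members passed, and 1123 of all 18193 genes had a higher slope, against 390 in the main fit. Without the 24 h array Dbf4 and Rrm2 passed, where 391 of all genes were higher. Without the array at 0 h Cdc6 and Tk1 did, where 194 were.

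The slopes of the conditions, both on log2(hour) and from 4 h in control, did not separate for any member in either direction (0 at an unadjusted p under 0.05, limma), where 0.0385% of all genes were higher and 0.0605% lower. The slope was steeper by value with IL-6 plus HGF in 41 of 44 members, with a median difference of 0.11. The values were 0.23 ± 0.27 for Cdc6, 0.20 ± 0.22 for Cdc45, 0.11 ± 0.15 for Pcna, 0.17 ± 0.16 for Rpa2, -0.24 ± 0.32 for Tk1 and 0.15 ± 0.32 for Uhrf1. This direction rested on single arrays: the difference was positive in 11 members and negative in 33 without the control at 4 h, in 4 and 40 without the stimulated array at 24 h, and in 9 and 35 without both 24 h arrays.

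At hours measured in both conditions, the stimulated arrays were set against the controls at 8, 12 and 24 h in a fit blocked on hour with 2 residual degrees of freedom. Only Tk1 differed: it was lower with IL-6 plus HGF by -0.76 ± 0.13 on the log2 scale (1.7-fold, limma, adjusted p = 0.0173), with differences of -0.53 at 8 h, -1.14 at 12 h and -0.62 at 24 h. All 3 pairs thus pointed the same way, and the largest gap was at 12 h, where the levels were 7.93 and 6.79. No member was higher and 1 was lower, where 2.53% of all genes were higher and 6.46% lower. Without the block Tk1 did not pass (adjusted p = 0.736), and it passed without any 1 of the 3 pairs (adjusted p = 0.0342 to 0.0389). The nuclear RNA mean was 10.99, 9.69 and 9.62 with IL-6 plus HGF against 9.06, 9.70 and 8.96 in control at 8, 12 and 24 h, and Tk1 differed by -1.01 ± 0.143 with it as a covariate (adjusted p = 0.0335).

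Other members came near the threshold. Cdc25a was at 0.40 ± 0.10 (adjusted p = 0.0553), with differences of 0.20 at 8 h, 0.63 at 12 h and 0.37 at 24 h. Slbp was at 0.31 ± 0.08 (adjusted p = 0.0674), with differences of 0.22 at 8 h, 0.25 at 12 h and 0.44 at 24 h. Both were higher with the stimulus in every pair, and both passed under 3 of the other settings. In the groups without a call, the largest values were also 0.31 ± 0.08 for the kinase Cdc7, 0.24 ± 0.08 for Orc6, -0.26 ± 0.07 for Rfc4 and -0.24 ± 0.11 for Rpa2, of which Cdc7 and Rfc4 passed once dim genes were left out.

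By hour, the list changed sides. At 8 h, 10 of 44 members were higher with IL-6 plus HGF than in control and 34 lower, with a median of -0.14, where 50.1% of all genes were higher. At 12 h, 15 were higher and 29 lower, with a median of -0.12 (50% of all genes higher). At 24 h, 31 were higher and 13 lower, with a median of 0.18 (51.1% of all genes higher). Each side is 1 array, so this order has no replicate check. Cdc6 differed by -0.39 at 8 h, -0.64 at 12 h and 0.61 at 24 h, Uhrf1 by -0.36 at 8 h, -0.58 at 12 h and 0.34 at 24 h and Rrm2 by -0.19 at 8 h, -0.19 at 12 h and 0.35 at 24 h. These genes were below control at 8 and 12 h and above it at 24 h. In all 3 pairs 8 members were higher, namely Orc1, Orc6, Cdc7, Gins1, Cdc25a, Pcna, Fen1 and Slbp, against 23.6% of all genes. In all 3 pairs 12 were lower, namely Gmnn, Mcm10, Gins2, Gins3, Rfc2, Rfc4, Pola1, Pole, Lig1, Rpa1, Tk1 and Chaf1b, against 24.6% of all genes, and both shares of the list lie near these values.

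**Figure D4:**
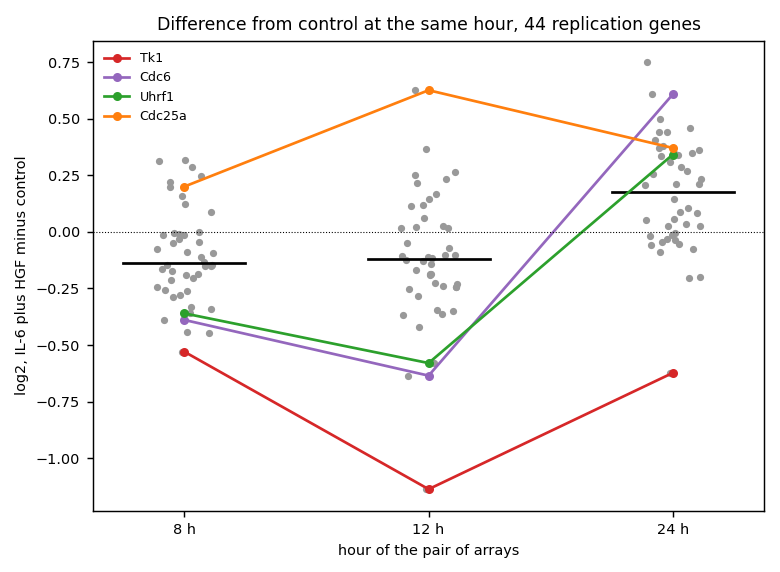
Log2 difference between IL-6 plus HGF and control on the pair of arrays at 8, 12 and 24 h for each of the 44 measured replication genes (points), with the median as a black bar and 4 genes joined by lines. The medians are -0.139, -0.12 and 0.176, Tk1 stays below 0 at all 3 hours, and Cdc6 and Uhrf1 cross from below to above 0 at 24 h.

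IL-6 alone was compared over 1 to 4 h with the controls at 0 and 4 h in a fit of 17 arrays. No member passed in either direction (limma, 0 at an unadjusted p under 0.05), where 0.022% of all genes were higher and 0% lower. The difference was negative in 30 members and positive in 14, with a median of -0.05 against -0.01 over all genes. The largest values of each group were Pola1 at -0.29 ± 0.30, Cdt1 at -0.23 ± 0.21, Cdc7 at -0.18 ± 0.16, Rfc1 at -0.11 ± 0.08, Tk1 at -0.11 ± 0.56 and Chaf1b at -0.10 ± 0.22. Cdc6 under IL-6 read 7.24 at 1 h, 7.00 at 2 h, 6.54 at 3 h and 6.50 at 4 h, and the controls at 0 and 4 h read 7.35 and 6.52. The level was thus lower at the later hours in both conditions. Each group of this fit spans several hours, and the SE of a difference reached 0.56, for Tk1, so moderate changes lie within the error. The 24 h arrays were not compared here but entered that error. With them left out the differences were -0.11 ± 0.16 for Tk1 and -0.292 ± 0.0964 for Pola1 (limma, adjusted p = 0.728 for Pola1). The SE of Rfc1 stayed near 0.08, and still no member passed. The lack of unadjusted p-values under 0.05 thus depends in part on the 24 h arrays, and says little about IL-6.

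The control at -5 h, a single array, was set against the 5 later controls. No member passed (limma, 0 at an unadjusted p under 0.05), as no gene of the array did in either direction (0% higher and 0% lower). The difference was negative in 41 of 44 members, with a median of -0.34 against 0.01 over all genes. The 5 later controls include the 24 h array, where most members were highest, which widens these differences and their SE. The largest values of each group were Tk1 at -1.66 ± 0.97, Cdc6 at -1.09 ± 0.59, Rfc4 at -0.97 ± 0.51, Gins2 at -0.85 ± 0.55, Uhrf1 at -0.66 ± 0.42 and Prim1 at -0.53 ± 0.34, and Rrm2 followed Tk1 at -1.41 ± 0.79. For Tk1 the array at -5 h read 5.95 against 6.66 at 0 h, and for Cdc6 6.25 against 7.35. Both were the lowest of the controls. The list mean at -5 h differed from that at 0 h by -0.219. Against the controls at 0 and 4 h alone, the difference was negative in 38 members and positive in 6.

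Other genes of the pathway moved with the list. Of 47 further replication genes 13 rose and none fell at 24 h in control, and 30 rose and none fell with IL-6 plus HGF, with medians of 0.41 and 0.63. Of all genes 3.73% rose and 2.19% fell in control, and 7.46% rose and 3.83% fell with IL-6 plus HGF. Pclaf, a Pcna-binding protein, rose by 1.81 ± 0.29 and 2.43 ± 0.26, and Clspn, which encodes the checkpoint mediator claspin, by 1.63 ± 0.20 and 2.02 ± 0.18. The chromatin factor Atad2 rose by 1.13 ± 0.12 and 1.50 ± 0.11, and the nuclease Exo1 by 2.07 ± 0.21 with the stimulus. Of 13 regulators of the passage from G1 to S phase 6 rose in control and 11 with IL-6 plus HGF. Ccnd1, the G1 cyclin D1, rose by 1.68 ± 0.24 in control, and Ccne2, a cyclin of S-phase entry, by 2.48 ± 0.27 with the stimulus. The repressors E2f7 and E2f8 rose by 1.31 ± 0.18 and 1.32 ± 0.21 in control and by 2.13 ± 0.16 and 1.69 ± 0.20 with IL-6 plus HGF.

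The mitosis list changed more than the replication list by value. Of its 24 genes 23 rose at 24 h in control, where 3.73% of all genes did, and all 24 with IL-6 plus HGF, where 7.46% did. The list medians were 2.22 and 2.42. Its mean level climbed from 5.82 at 0 h to 6.97, 7.48 and 9.42 at 8, 12 and 24 h in control, and stood at 6.65, 7.33 and 9.20 at the same hours with the stimulus. Cyclin B2 (Ccnb2) rose by 3.01 ± 0.34 in control, and the kinetochore motor Cenpe by 2.72 ± 0.18 and 2.48 ± 0.16. At matched hours 4 of the 24 were lower with IL-6 plus HGF, namely Cenpf (-0.77 ± 0.08), Ttk (-0.60 ± 0.08), Mki67 (-0.55 ± 0.07) and Ccnb2 (-0.39 ± 0.09), and none was higher. Of all genes 6.46% were lower and 2.53% higher in that fit. No gene of these 3 lists passed for IL-6 alone, for the difference of the 24 h changes or at -5 h (limma). At an unadjusted p under 0.05 the further replication genes numbered 1 for IL-6 alone and 10 for the difference of the 24 h changes. The G1 to S regulators numbered 0 and 5, and the mitosis genes 0 and 0. The share of all genes at that level was not counted.

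Across the 18 arrays the members varied together, as a description over arrays that share the 24 h samples. The correlation of a member with the mean of the others was highest for Rrm1 (0.982), Cdc45 (0.978), Mcm5 (0.971) and Gmnn (0.969). It was lowest for Orc1 (-0.05), Tyms (0.13), Pold1 (0.464) and Cdc7 (0.469), which also missed the threshold at 24 h in both conditions. For Orc1 this holds for the probe set used. The genes outside the list most like its mean were Fbxo5 (r = 0.982), Hat1 (0.982), Ercc6l (0.981), Depdc1a (0.977), Exo1 (0.976), Pole2 (0.974), E2f7 (0.973) and Slfn9 (0.971), over 18 arrays. Without the 24 h arrays their r over 16 arrays was 0.709 to 0.903, highest for Ercc6l and lowest for Slfn9.

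Most members had more than 1 probe set, 36 of the 44. Of the members that rose at 24 h and had several, all probe sets pointed the same way in 15 of 20 in control and 20 of 30 with IL-6 plus HGF. In control the probe sets disagreed for Cdc45, Dbf4, Topbp1, Pola1 and Prim2. With the stimulus they disagreed for Cdt1, Mcm10, Cdc45, Dbf4, Cdc25a, Pola1, Pola2, Prim2, Chaf1b and Slbp. With the mean of all probe sets of a gene 19 members rose in control and 35 with IL-6 plus HGF. In control Mcm4, Dbf4, Gins1, Topbp1, Pola1, Dut and Uhrf1 then no longer passed, and Mcm7 did. With the stimulus Cdt1, Gins1, Cdc25a, Pola2 and Slbp no longer passed. The 35 include Orc1 and Gins3, which did not pass on the probe set used.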

How the data were processed

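RNA of 18 hepatocyte dishes was biotin-labelled with the One-Cycle kit and hybridized to one-colour Affymetrix arrays, per the labels' protocols. The deposited series matrix holds 1 value per probe set, here taken as a log2 signal from the range of the values. How the authors summarized and normalized the arrays is not given here. The sorted values of any array departed from their mean by at most 0.118, and the values were used without further scaling.

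Of 45101 probe sets, 64 controls were left out, and 34945 of the rest had 1 gene symbol, 932 several and 9160 none. Symbols were set through the Entrez identifier for 34741 probe sets, kept for 204, and changed for 0. The probe set with the highest mean stood for each of 18193 genes, and 0 value columns were left unmapped.

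The labels' stimulus and hour set the groups. Tests used limma 3.58.1 in R 4.3.3 (lmFit, eBayes) on the log2 values, with Benjamini-Hochberg adjustment over all genes at 0.05, after a run on simulated data. Nothing says that the dishes were independent experiments, and precision is limited by the number of arrays. All members could be named. Every member that passed was named with its values, and where no member of a role group passed, the largest 1 or 2 values were given. Of other lists at most 4 genes that passed were named, and for likeness the 8 genes outside the list with the highest correlation. The members, gene lists, cell type markers and motifs were chosen with earlier results of these data known. Quantile normalization, centring, a filter at the 40th percentile, a robust intensity trend, averaged probe sets, other time scales or base hours, the block on hour, and leaving out arrays were tried as alternatives.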

Additional observations from a re-analysis of the deposited data

Results flagged for a closer look

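For 21 of the members and for their mean, each condition was searched for an array whose gap to the nearest other array, divided by the range of the group, passed Dixon's critical value. Of 110 combinations of gene and group 28 passed, and 26 of the 28 were a 24 h array. Nearly all of the 21 had already passed as higher at 24 h with IL-6 plus HGF, so such flags were largely fixed in advance. The 24 h array lay above every earlier one in 25.5% of all genes in control and 21.5% with IL-6 plus HGF. The share of all genes that the rule flags was not counted. Chance flags about 1 in 20 among replicates, which is no yardstick here. Hours are not replicates of each other, so such a gap describes the time course.

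The 24 h array under IL-6 plus HGF stood apart from its 7 earlier arrays for the mean over the members (gap over range 0.755). Of the licensing genes it did so for Cdc6 (0.794), Gmnn (0.721), Mcm2 (0.668) and Mcm5 (0.575). Of the firing genes it did so for Cdc45 (0.763), Dbf4 (0.714), Mcm10 (0.655) and Cdc25a (0.539). The clamp Pcna (0.595), its loader subunit Rfc4 (0.609), and the polymerase and primase genes Pola1 (0.838), Pole (0.641) and Prim1 (0.598) did the same. So did the nucleotide genes Tk1 (0.78), Rrm2 (0.725), Rrm1 (0.71) and Dut (0.709), and Uhrf1 (0.634) and Slbp (0.619).

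The 24 h control stood apart from the controls from 0 to 12 h for Prim1 (0.841), Pole (0.795), Mcm5 (0.793), Pcna (0.778), Rrm1 (0.731) and Topbp1 (0.721). Before 24 h, within IL-6 plus HGF from 5 to 12 h, Uhrf1 was high at 5 h (0.798) and Dbf4 was high at 12 h (0.617).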

How the results depend on the processing

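With IL-6 plus HGF the 24 h change called 35 to 39 members under the alternatives, and 33 of the 38 passed in all of them. Of the 25 called in control 9 passed in all (Gmnn, Mcm10, Prim2, Pole, Lig1, Rrm1, Rrm2, Tk1 and Chaf1b). With arrays left out in turn the counts were 36 to 38 with IL-6 plus HGF and 12 to 20 in control, the 12 being without the control at 8 h. At matched hours 2 members were higher after quantile normalization, 4 higher and 2 lower once dim genes were left out, 3 higher with an intensity trend, and 0 lower without the block on hour. The count of slopes with IL-6 plus HGF was 36 with hours in place of their logarithm, 0 without 24 h, and 8 to 36 with single arrays left out. It was 22 after quantile normalization, 23 with dim genes left out, 19 with an intensity trend and 14 after centring. With the mean of all probe sets it was 13, with 11 of the 18 kept. For this slope the probe sets of Cdt1, Dbf4, Cdc25a and Rrm1 did not all point the same way. The count of control slopes was 2 after quantile normalization, with dim genes left out and without 24 h, 3 with an intensity trend, 1 with the mean of all probe sets, 23 with hours, and 0 to 2 with single arrays left out. The counts over all genes shifted as well, and the cause of these shifts was not tested. Without 24 h the slope with IL-6 plus HGF was -0.0572 for Pola1, -0.0667 for Rrm1, -0.0039 for Rrm2, -0.161 for Tk1 and -0.374 for Uhrf1. The difference of slopes without both 24 h arrays was -0.531 for Cdc6, -0.217 for Cdc45, -0.112 for Pcna, -0.101 for Rpa2 and -0.556 for Uhrf1. Without the control at 4 h Cdc45 was at -0.0678, Pcna at -0.00909, Rpa2 at -0.0155 and Uhrf1 at -0.135. For Tk1 it was 0.0248 without 5 h and 0.116 without the control at 24 h. With single arrays left out this difference ran from -0.599 to 0.503 for Cdc6, -0.415 to 0.416 for Cdc45, -0.248 to 0.251 for Pcna, -0.243 to 0.314 for Rpa2, -0.848 to 0.475 for Uhrf1 and -1.24 to 0.116 for Tk1, each lowest without the stimulated array at 24 h. No member passed under any alternative for IL-6 alone, the difference of the 24 h changes, the difference of slopes or -5 h. The nuclear RNA covariate and the fits without the array at 10 h were chosen after seeing the data. The 24 h values rest on 1 array per condition, and the values of the dim Tyms say little.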
